A study of Homo sapiens with 6 samples.

Results

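Transcript levels of 3 chaperone genes, CRYAB, HSPB1 and DNAJB9, were compared between SK-OV-3 cells given fulvic acid and SK-OV-3 cells without it. The genes were taken by their symbols from the authors' deposited table of 459 genes, and all 3 symbols were found there, each in 1 row. SK-OV-3 is an established cell line from a human ovarian cancer, of wild-type genotype per the labels. Fulvic acid (FA), a water-soluble fraction of humic substances, was given to 1 group at 100 µg/ml over 48 h (FA 1, 2 and 3), and the other group had no treatment (control 1, 2 and 3). Polyadenylated RNA of each of the 6 libraries was sequenced. Whether replicate libraries stem from separate cultures is not stated in the labels. The p-values therefore reflect library-to-library spread alone, and that spread may be technical.

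Chaperones keep other proteins folded. CRYAB (alpha-B crystallin, also called HSPB5) and HSPB1 (HSP27) are small heat shock proteins of the cytosol. They assemble into large oligomers through a shared alpha-crystallin domain, hold unfolding proteins without using ATP and pass them on to HSP70. Both are known targets of the heat shock factor HSF1. DNAJB9 (ERdj4) is a J-domain co-chaperone of the endoplasmic reticulum (ER). Its J domain stimulates the ATPase of the ER HSP70, BiP, and it is known as a target of the IRE1 and XBP1 branch of the unfolded protein response, where it also restrains IRE1. In tumour cells small heat shock proteins are mostly known for protecting against stress and cell death.

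HSPB1 and DNAJB9 both lie on the plus strand of chromosome 7. In GENCODE release 29 (GRCh38), HSPB1 (ENSG00000106211) spans positions 76302544 to 76304295 and DNAJB9 (ENSG00000128590) spans positions 108569568 to 108574850. CRYAB (ENSG00000109846) lies on the minus strand of chromosome 11, from position 111908565 to 111923722. The 250 bases before the start of HSPB1 and DNAJB9 in RefSeq (GRCh38.p14, plus strand, 5′ to 3′) are shown. The promoter sequences used here held no entry for CRYAB, so its stretch is not shown and was not searched. Capitals mark the heat shock element GAANNTTC in HSPB1 (chr7:76302423-76302672), and CCACG and CCAAT, which together form the ER stress response element, on either strand in DNAJB9 (chr7:108569624-108569873).
HSPB1: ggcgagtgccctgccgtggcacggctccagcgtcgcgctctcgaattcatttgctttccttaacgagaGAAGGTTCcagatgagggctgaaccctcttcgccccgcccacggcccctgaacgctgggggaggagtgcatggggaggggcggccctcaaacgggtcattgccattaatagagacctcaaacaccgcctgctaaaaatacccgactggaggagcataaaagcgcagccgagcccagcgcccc
DNAJB9: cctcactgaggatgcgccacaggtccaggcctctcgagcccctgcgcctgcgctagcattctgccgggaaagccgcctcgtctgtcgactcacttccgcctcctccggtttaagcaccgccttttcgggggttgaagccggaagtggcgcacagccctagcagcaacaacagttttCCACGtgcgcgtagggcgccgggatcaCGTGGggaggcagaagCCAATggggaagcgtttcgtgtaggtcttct
GENCODE gives both genes transcripts that start before the RefSeq start. Part of the HSPB1 stretch and the whole DNAJB9 stretch therefore lie within the gene in that annotation. The minus-strand genes PNPLA8 and THAP5 also begin within the DNAJB9 stretch, at positions 108569666 and 108569750, so the stretch is not particular to DNAJB9.

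The following letters were searched on both strands of these 250 bases and of the same stretch of 27303 RefSeq genes. The heat shock element GAANNTTC, to which HSF1 binds as part of longer arrays, was found once in HSPB1, 182 to 175 bases before the start, and was not found in DNAJB9. It was present in 5.85% of all 27303 stretches. The other orientation, TTCNNGAA, was found in neither gene and in 6.72% of all stretches. In DNAJB9, CCACG was found at 2 places and CCAAT at 1, 31 to 27 bases before the start. HSPB1 also had CCACG at 2 places. These short letters are common, with CCACG in 33.3% and CCAAT in 33.0% of all stretches. Both matches of CCACG in DNAJB9 overlap a match of CACGTG, a motif in 6.49% of stretches. The full ER stress response element, CCAAT and CCACG 9 bases apart, was found in neither gene and in 0.0806% of all stretches, and its second form, ATTGG and CCACG 1 base apart, was also found in neither and in 0.0513% of all. TGACGTGG was likewise found in neither gene and in 0.667% of all, and GCGTG, the core letters bound by the aryl hydrocarbon receptor, in neither gene and in 31.9% of all.

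FA was accompanied by lower transcript levels of both small heat shock proteins and a higher level of the ER co-chaperone. The exception was HSPB1, which changed sign when libraries were scaled by TMM or DESeq2 on the listed genes alone. By recovered depth, CRYAB was 3.90-fold lower, HSPB1 2.17-fold lower and DNAJB9 2.12-fold higher in an edgeR refit of the table (values with their errors are given for each gene). Scaling on the listed genes alone with TMM brought the log2 fold changes to -0.72 for CRYAB, 0.13 for HSPB1 and 2.32 for DNAJB9, against -1.96, -1.12 and 1.09 with recovered depth. All 3 genes passed an adjusted p of 0.05, as did 100% of the 459 genes, because a gene had to pass the authors' limits to be listed. The 2 that were lower are set against 74.5% of listed genes that were lower, and the 1 that was higher against 25.5% that were higher. The FA and control libraries did not overlap in FPKM (fragments scaled by transcript length and library depth) for any of the 3 genes, as for 99.8% of the listed genes.

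**Figure D1:**
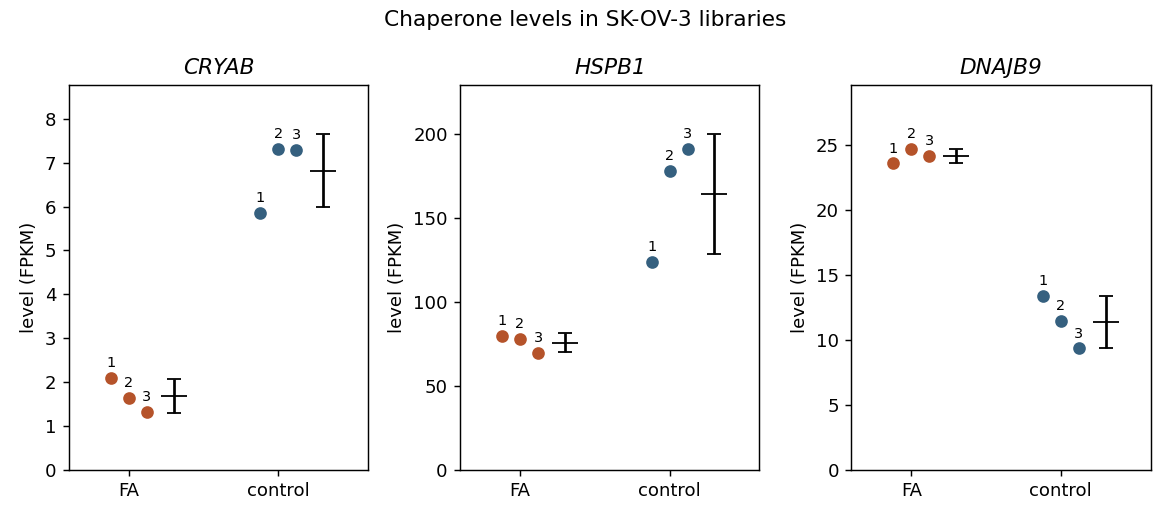
Level of CRYAB, HSPB1 and DNAJB9 in FPKM (vertical axes, each from 0) in the FA and control libraries. Points are single libraries labelled by replicate number, and the bar beside them is the mean ± SD of 3 libraries. FA libraries lie below all control libraries for CRYAB and HSPB1, and above them for DNAJB9.

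CRYAB was the small heat shock protein with the larger relative change. It had 86, 75 and 70 counts in FA 1, 2 and 3, against 257, 350 and 339 counts in control 1, 2 and 3. The highest FA library held fewer counts than the lowest control library, so the groups did not overlap. Its level was 2.09, 1.63 and 1.32 FPKM in FA 1, 2 and 3, against 5.86, 7.31 and 7.28 FPKM in control 1, 2 and 3. On average this was 1.68 ± 0.39 FPKM with FA and 6.82 ± 0.83 FPKM in control (SD, n = 3 each). The edgeR log2 fold change was -1.96 (SE 0.21, adjusted p = 4.1e-06). In the authors' deposited table its log2 fold change is -1.91, at a false discovery rate (FDR) of 3.2e-14.

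The small counts of CRYAB limit its precision most with FA, where no library had more than 86. Other genes also lie on the exons of CRYAB. Of its 3034 exonic bases in GENCODE, 626 (20.6%) are also exonic in HSPB2, another small heat shock protein gene on the opposite strand. Within these 626, 548 are also exonic in the read-through gene HSPB2-C11orf52, so the shared part in all is 20.6%. Whether counting kept strand is not stated in the sources used here, so reads of CRYAB and HSPB2 cannot be told apart in the shared part. HSPB2 was not analysed here.

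Counts and FPKM of a gene together imply the transcript length that the authors' scaling used. For CRYAB, with 16 annotated transcripts, this length was 1.03, 1.03 and 1.04 kb in FA 1, 2 and 3 and 1.01, 0.980 and 0.981 kb in control 1, 2 and 3. For HSPB1 it was 0.955, 0.943 and 0.925 kb with FA and 0.917, 0.948 and 0.955 kb in control. For DNAJB9 it lay between 2.71 and 2.72 kb in all 6 libraries. Thus the FPKM and the counts of CRYAB give slightly different fold changes, while those of DNAJB9 differ only by depth.

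HSPB1 was by far the more abundant of the small heat shock proteins, with the seventh highest mean FPKM of the listed genes in control. It had 3036, 3293 and 3275 counts in FA 1, 2 and 3, against 4936, 8247 and 8657 counts in control 1, 2 and 3. FA libraries were close to each other, while control 1 held far fewer counts than the other control libraries and still more than any FA library. Its level was 79.7, 78.2 and 69.6 FPKM in FA 1, 2 and 3, against 123.8, 178.1 and 191.3 FPKM in control 1, 2 and 3. The means were 75.8 ± 5.5 FPKM with FA and 164.4 ± 35.8 FPKM in control (SD, n = 3 each).

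The edgeR log2 fold change of HSPB1 was -1.12 (SE 0.17, adjusted p = 5.0e-05). Its sign turned when libraries were scaled on the listed genes alone by TMM (0.13) or DESeq2 (0.12). Scaling on the column totals of the listed genes kept HSPB1 lower, at -0.88 (SE 0.16, edgeR adjusted p = 0.00035). TMM and DESeq2 each moved the median log2 fold change of all listed genes by 1.24, since most of these genes were lower with FA. In the authors' deposited table HSPB1 stands at -1.06, at an FDR of 1.8e-06. Of the 342 lower genes in that table, 32 had a smaller change than HSPB1, whereas 266 had a smaller change than CRYAB. HSPB1 has processed pseudogenes in GENCODE. HSPB1P1 aligns to it over 256 positions at 97.3% identity, and HSPB1P2 over 579 positions at 87.9%, with gaps counted as positions. A share of the HSPB1 reads may therefore be uncertain.

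DNAJB9 had 2554, 2992 and 3341 counts in FA 1, 2 and 3, against 1575, 1518 and 1202 counts in control 1, 2 and 3. Every FA library held more counts than every control library. Its level was 23.6, 24.7 and 24.2 FPKM in FA 1, 2 and 3, against 13.4, 11.4 and 9.34 FPKM in control 1, 2 and 3. FA libraries were nearly equal, at 24.2 ± 0.55 FPKM, and control libraries were more spread, at 11.4 ± 2.0 FPKM (SD, n = 3 each). The edgeR log2 fold change was 1.09 (SE 0.15, adjusted p = 2.2e-05). In the authors' deposited table it is 1.15, at an FDR of 1.9e-11. Of the 117 higher genes in that table, 31 had a smaller change. Of the exonic bases of DNAJB9, 6.45% are also exonic in a gene on the opposite strand, 183 bases in THAP5 and, within these, 99 in PNPLA8.

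**Figure D2:**
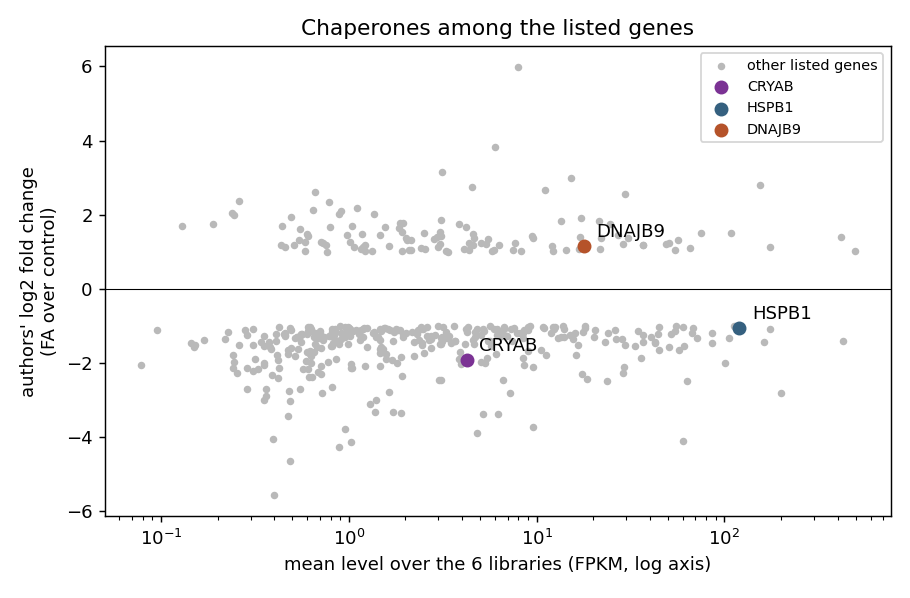
Mean level over the 6 libraries in FPKM (horizontal log axis) against the log2 fold change of FA over control in the authors' deposited table (vertical axis), 1 point for each of the 459 listed genes. CRYAB lies at -1.91, HSPB1 at -1.06 near the upper edge of the lower genes, and DNAJB9 at 1.15 near the lower edge of the higher genes. The table holds no gene with an absolute value under 1.00.

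The order of the 3 levels per length was the same in each of the 6 libraries, with HSPB1 highest, DNAJB9 next and CRYAB lowest. The distances between them differed. DNAJB9 stood at 29.6%, 31.6% and 34.8% of the FPKM of HSPB1 in FA 1, 2 and 3, against 10.8%, 6.43% and 4.88% in control 1, 2 and 3. By mean FPKM among the 459 listed genes, HSPB1 held rank 12 with FA and rank 7 in control, DNAJB9 rank 47 with FA and rank 101 in control, and CRYAB rank 214 with FA and rank 139 in control.

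A ratio of counts within a library does not depend on depth or on the scaling of libraries. The ratios of the 3 gene pairs were therefore compared between groups by a two-sided exact permutation test, for which 3 against 3 libraries can give no p below 0.10. A ratio can still depend on base composition, in which HSPB1 (GC content 63.6%) and DNAJB9 (42.1%) differ. The part of base composition in the ratios was not tested. For each 100 counts of HSPB1 there were 2.83, 2.28 and 2.14 counts of CRYAB in FA 1, 2 and 3, against 5.21, 4.24 and 3.92 in control 1, 2 and 3. The ratio was lower in all 3 FA libraries than in any control library. CRYAB was thus lower relative to HSPB1 by a log2 difference of -0.88, with an SD of 0.21 among FA libraries and of 0.21 among control libraries (exact permutation p = 0.10, adjusted p = 0.10 over 3 ratios).

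The ratios of the ER co-chaperone to each small heat shock protein were higher with FA, a direction already given by DNAJB9 being listed as higher and the others as lower. The count ratio of DNAJB9 to HSPB1 was 0.841, 0.909 and 1.02 in FA 1, 2 and 3, against 0.319, 0.184 and 0.139 in control 1, 2 and 3. Its log2 difference was 2.19, with an SD of 0.14 among FA libraries and 0.61 among control libraries (exact permutation p = 0.10). The count ratio of DNAJB9 to CRYAB was 29.7, 39.9 and 47.7 in FA 1, 2 and 3, against 6.13, 4.34 and 3.55 in control 1, 2 and 3. Its log2 difference was 3.08, with an SD of 0.35 among FA libraries and 0.40 among control libraries (exact permutation p = 0.10). Both also had an adjusted p = 0.10 over the 3 exact permutation tests.

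**Figure D3:**
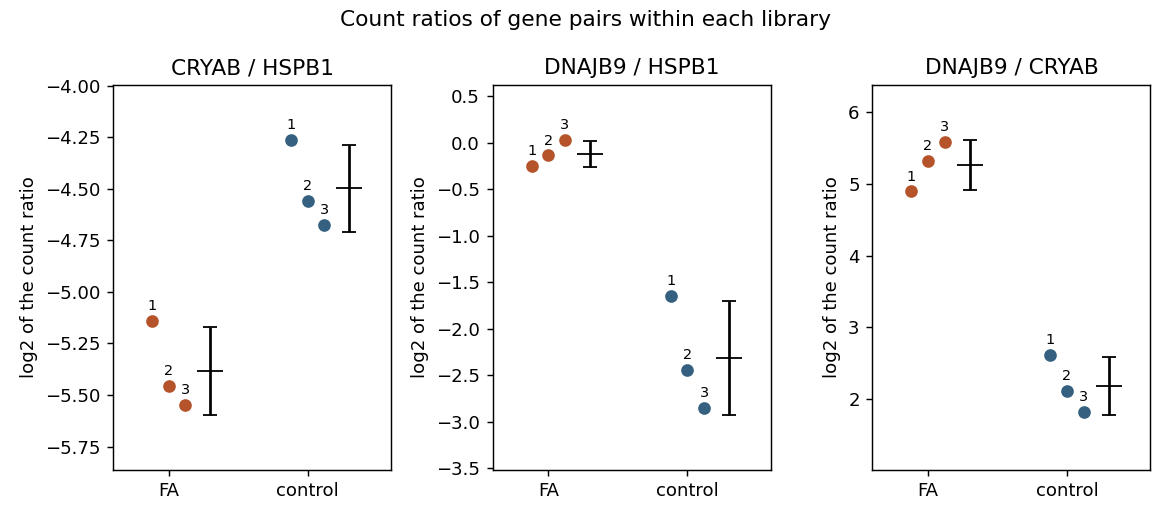
Log2 of the ratio of counts of 2 chaperone genes within a library (vertical axes, not from 0), for FA and control libraries. Points are single libraries labelled by replicate number, and bars are the mean ± SD of 3 libraries. FA libraries lie below control libraries for CRYAB to HSPB1 and above them for DNAJB9 to HSPB1 and DNAJB9 to CRYAB.

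Added together, CRYAB and HSPB1 came to 81.8, 79.8 and 70.9 FPKM in FA 1, 2 and 3, against 129.7, 185.4 and 198.5 FPKM in control 1, 2 and 3. The sum was 77.5 ± 5.8 FPKM with FA and 171.2 ± 36.6 FPKM in control (SD, n = 3 each). CRYAB made up 2.15 ± 0.36% of the sum with FA and 4.04 ± 0.43% in control. HSPB1 made up the rest.

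The spread among control libraries was larger than that among FA libraries for HSPB1 and DNAJB9, and it moved with base composition. The annotated transcripts of HSPB1 have a GC content of 63.6%, above 93.5% of the 371 listed genes with an identifier and a mean of at least 50 counts. DNAJB9 has 42.1%, above 10.5% of them, and CRYAB has 52.0%, near their median of 52.7%. In control 1, HSPB1 lay 0.38 below the control mean on the log2(FPKM + 0.01) scale (deviation -0.38), and the 37 other genes within 2 percentage points of its GC content had a median deviation of -0.35. In the same library DNAJB9 had a deviation of 0.25, and the 41 genes near its GC content a median deviation of 0.34.

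Control 3 deviated the other way. HSPB1 had a deviation of 0.24 there, with a median of 0.22 for genes of like GC content, and DNAJB9 a deviation of -0.27, with a median of -0.31. CRYAB did not follow the genes of like GC content as closely, with deviations of 0.34 in FA 1 and -0.32 in FA 3, where the 61 genes near its GC content had medians of 0.11 and -0.068. Without control 1 the edgeR log2 fold change of HSPB1 was -1.30 (SE 0.11, adjusted p = 5.4e-07) and that of DNAJB9 was 1.22 (SE 0.12, adjusted p = 2.7e-06). Without control 3 it was -0.98 for HSPB1 (SE 0.17, edgeR adjusted p = 0.00010) and 0.96 for DNAJB9 (SE 0.14, edgeR adjusted p = 3.7e-05). With all libraries the values were -1.12 and 1.09, so leaving out control 1 enlarged both changes and leaving out control 3 reduced both. The part of base composition in the comparison of FA with control was not tested.

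**Figure D4:**
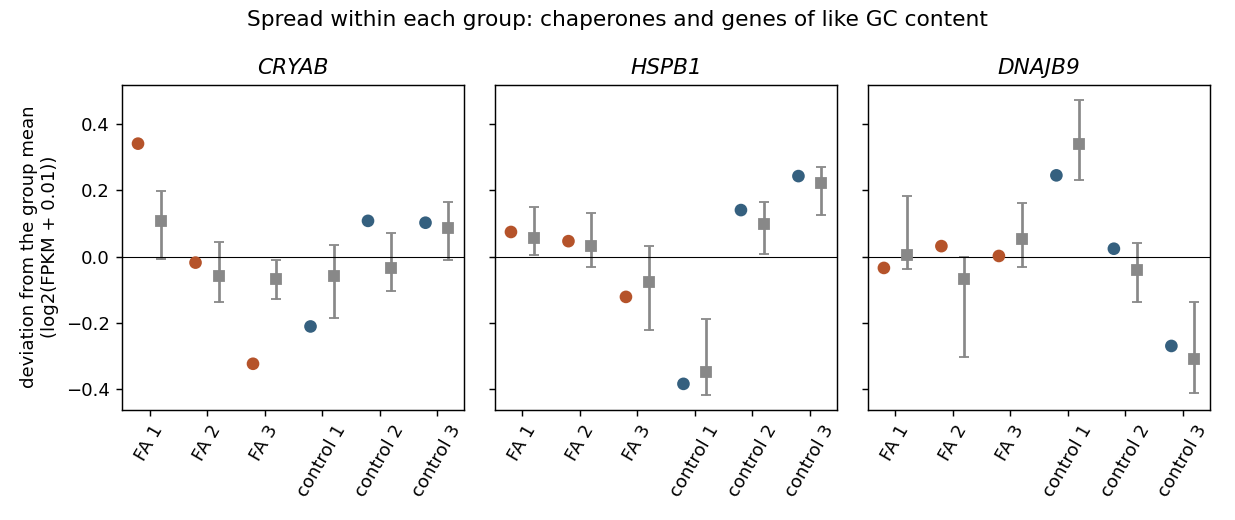
Deviation of each library from the mean of its own group on the log2(FPKM + 0.01) scale (vertical axis), for FA and control libraries (horizontal axis). Coloured points are CRYAB, HSPB1 and DNAJB9, and grey squares with bars are the median and the quartiles of listed genes within 2 percentage points of the same GC content. HSPB1 at -0.38 and DNAJB9 at 0.25 in control 1 lie near the grey squares, at -0.35 and 0.34.

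Genes with the most similar pattern were sought by Pearson correlation of log2(FPKM + 0.01) over the 6 libraries, among 370 other listed genes with an identifier and a mean of at least 50 counts. The libraries of 2 groups that do not overlap share the difference between groups, so such correlations are high for many listed genes and are given as a description. For CRYAB the nearest were NKAIN4 (r = 0.997), GLI1 (r = 0.996), a transcription factor of Hedgehog signalling, and IFITM1 (r = 0.996), an interferon-induced membrane protein. For HSPB1 they were the calcium-binding protein gene S100A2 (r = 0.9998), PKDCC (r = 0.998) and C1QL1 (r = 0.998). For DNAJB9 they were the zinc finger gene ZNF165 (r = 0.999), the interleukin-1 receptor gene IL1R1 (r = 0.999) and the laminin gene LAMA2 (r = 0.996). Among the genes near CRYAB, NKAIN4 had few counts with FA (21, 20 and 16 in FA 1, 2 and 3). GLI1 (243, 253 and 251) and IFITM1 (1039, 1029 and 1004) had more.

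S100A2 stood at 22.8 ± 2.2 FPKM with FA and 62.9 ± 16.5 FPKM in control, with 44.0 FPKM in control 1. ZNF165 stood at 13.7 ± 0.43 FPKM with FA and 5.28 ± 1.2 FPKM in control (SD, n = 3 each). When only the deviations from the group means were correlated over the 6 libraries, the order changed. S100A2 (r = 0.999) was again nearest to HSPB1, followed by ALDH3A1 (r = 0.997), an aldehyde dehydrogenase gene that was higher with FA, at 67.1 ± 4.3 FPKM against 30.3 ± 5.2 FPKM in control, and by the lysyl oxidase gene LOXL2 (r = 0.997). Near DNAJB9 were the chemokine gene CCL20 (r = 0.997), the transcription factor gene KLF7 (r = 0.990) and ZNF165 (r = 0.987). Unlike DNAJB9 and ZNF165, CCL20 and KLF7 had lower FPKM with FA than in control. Near CRYAB were ADRA1B (r = 0.973), an adrenergic receptor gene, the cytokine signalling inhibitor SOCS3 (r = 0.960) and LINGO1 (r = 0.954). In FA 1, 2 and 3, ADRA1B had only 50, 26 and 22 counts and LINGO1 only 58, 61 and 52. SOCS3 had more, at 677, 596 and 524. The GC contents of the 3 genes near HSPB1 were 54.1%, 60.2% and 59.7%, and those near DNAJB9 were 36.9%, 45.9% and 46.7%. Those near CRYAB were 59.8%, 61.9% and 63.5%, all above the 52.0% of CRYAB itself.

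The wider chaperone network was looked up with 7 lists of 155 genes in all, of which 4 were in the table. Of 11 small heat shock protein genes, CRYAB and HSPB1 were in the table, both lower. HSPB1 was not lower when scaled by TMM or DESeq2 on the listed genes alone. Of 41 J-domain protein genes, DNAJB9 was the only one in the table. Of 24 genes of the unfolded protein response and integrated stress response, ATF3 was the only one. None of the 27 genes of the other cytosolic and mitochondrial chaperones, the 21 genes of ER chaperones and folding enzymes, the 15 genes of ER-associated degradation or the 16 genes of HSF1 and its co-chaperones was among the 459. Genes outside the authors' limits were not analysed here, so this says nothing of their expression or of whether they changed less. The lists are not complete, and 3 genes of the ER folding machinery that are on none of them were in the table. These are CLGN, FICD and FKBP7, which were chosen after their values were seen.

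ATF3, a stress-induced transcription factor, had 5160, 5602 and 6268 counts in FA 1, 2 and 3, against 2159, 2496 and 2661 counts in control 1, 2 and 3. Every FA library was above every control library. Its level was 79.4 ± 3.4 FPKM with FA and 33.4 ± 1.2 FPKM in control (SD, n = 3 each; edgeR log2 fold change 1.27, SE 0.12, adjusted p = 1.9e-06). CLGN (calmegin), an ER chaperone related to calnexin, had 12635, 14540 and 17859 counts in FA 1, 2 and 3, against 7099, 6001 and 3816 counts in control 1, 2 and 3. It was higher with FA, like DNAJB9 (edgeR log2 fold change 1.44, SE 0.21, adjusted p = 2.7e-05). FICD, the ER enzyme that attaches AMP to BiP and removes it, had 793, 874 and 987 counts in FA 1, 2 and 3, against 355, 423 and 488 counts in control 1, 2 and 3. It was also higher (edgeR log2 fold change 1.12, SE 0.15, adjusted p = 1.8e-05). FKBP7, a prolyl isomerase of the ER, had 79, 47 and 86 counts in FA 1, 2 and 3, against 159, 155 and 158 counts in control 1, 2 and 3. Its edgeR log2 fold change was -1.11 (SE 0.25, adjusted p = 0.00076), the opposite sign to DNAJB9.

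**Figure D5:**
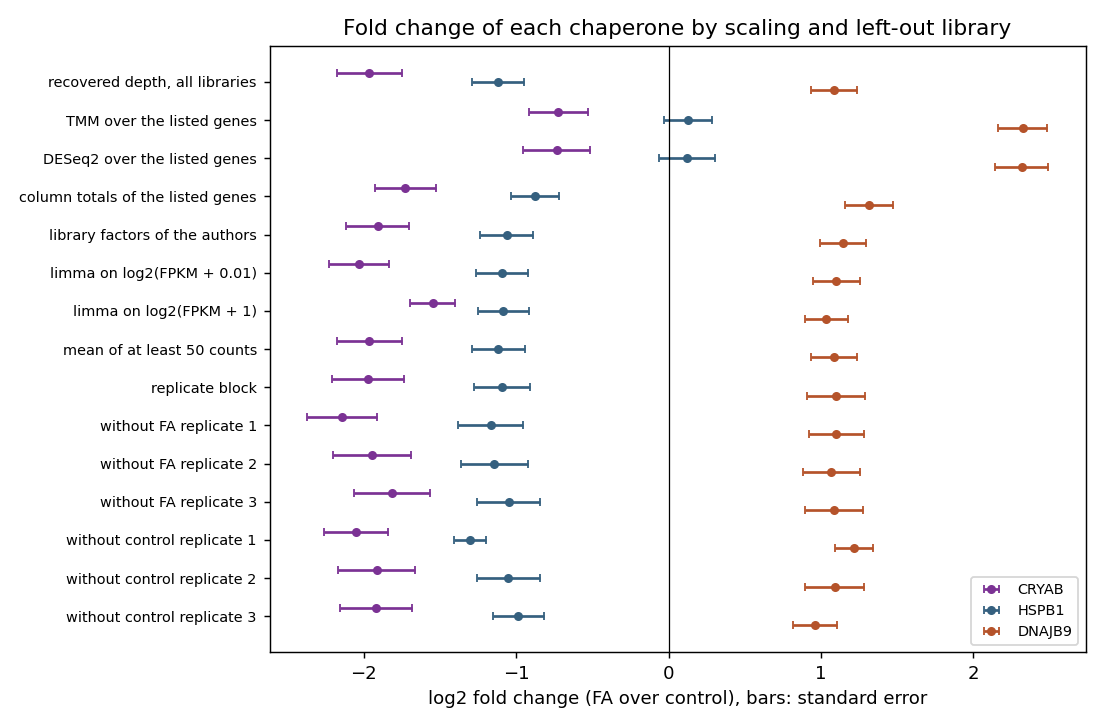
Log2 fold change of FA over control (horizontal axis) for CRYAB, HSPB1 and DNAJB9 under each scaling, test or left-out library (rows), with standard errors as bars. CRYAB lies below 0 and DNAJB9 above 0 in every row, and HSPB1 lies below 0 except with TMM (0.13) and DESeq2 (0.12) computed over the listed genes.

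Per library, the counts of all listed genes summed to between 561604 and 796663. Of 9 epithelial or ovarian marker genes, CDH1 was in the table, at 22.6 ± 1.5 FPKM with FA and 11.2 ± 0.25 FPKM in control. Of 6 markers of other cells COL1A1 was, at 0.214 ± 0.093 FPKM with FA and 0.469 ± 0.080 FPKM in control (SD, n = 3 each). The other markers were not analysed here. Fewer cells of a kind and less RNA per cell cannot be told apart in such bulk libraries.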

How the data were processed

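The data are 1 deposited table of 459 genes. Its columns, per the file headers, are the authors' counts and FPKM values for each of the 6 libraries, their FDR (an adjusted p-value) and their log2 fold change. The headers do not give the direction of the fold change, which was read from the counts as FA over control. The submitters' processing notes name the build GRCh38. Names of the aligner, counter and statistical test were not given in the sources used here. The smallest absolute log2 fold change in the authors' deposited table is 1.00 and the largest FDR 0.00977. All 459 genes were refitted from their counts in edgeR 4.0.16 under R 4.3.3 (quasi-likelihood test, group as the only term, Benjamini-Hochberg adjustment, threshold 0.05), after a check on simulated data. The simulated counts were drawn with the same library depths as the fit used, so that check could not test the scaling of libraries. As the genes were selected on these libraries, the refit measures spread and is not independent evidence. Its library sizes were depths recovered from the ratio of counts to FPKM in the 180 genes whose counts reached 200 in all libraries, with the scale set by 16 genes of a single annotated transcript, and ranged from 3.99e+07 to 5.09e+07 fragments. Standard errors are the absolute log2 fold change over the square root of F. Exact permutation tests were enumerated in Python 3.11.15. limma 3.58.1 and DESeq2 1.42.0 served as alternatives. Annotation came from GENCODE release 29 and promoter sequences from RefSeq GRCh38.p14, where HSPB1 and DNAJB9 were matched by symbol. The named genes are the 3 chaperones, members of the lists in the table, and the 3 genes most like each chaperone by each of 2 measures. CLGN, FICD and FKBP7 fall outside this rule and were added after their values were seen, and CDH1 and COL1A1 come from the marker list. The members and lists were chosen with earlier results of these data known.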

Additional observations from a re-analysis of the deposited data

How the results depend on the processing

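CRYAB and DNAJB9 kept their direction and an adjusted p under 0.05 in all 14 alternatives tried, and HSPB1 in 12 of 14. The log2 fold change of HSPB1 was 0.13 with TMM over the listed genes and 0.12 with DESeq2 size factors over the listed genes, where it did not pass (adjusted p = 0.61 and 0.71). With these scalings 198 and 204 of the 459 genes passed, against 459 with recovered depth, and 81 and 87 of them were lower (40.9% and 42.6%, against 74.5%). By construction both centre the typical listed gene. They brought CRYAB to -0.72 and -0.73, and DNAJB9 to 2.32 with both. Leaving out 1 library at a time, the log2 fold change ranged from -2.14 to -1.82 for CRYAB, from -1.30 to -0.98 for HSPB1 and from 0.96 to 1.22 for DNAJB9, and 459 genes passed each time. The groups do not overlap in these genes, so no left-out library could turn a direction. The log2 ratio differences ranged from -1.003 to -0.77 for CRYAB to HSPB1, from 1.93 to 2.53 for DNAJB9 to HSPB1 and from 2.90 to 3.29 for DNAJB9 to CRYAB, with no test able to pass 0.05. FA and control libraries of the same number did not deviate together (Pearson correlations of -0.019, 0.088 and -0.12 over 371 genes). The genes were selected for differences between the groups. Differently numbered libraries gave correlations from -0.15 to 0.18, a range that holds the same-numbered values. These correlations therefore cannot show whether the numbers pair the libraries. Whether they do is unknown. With the replicate number as a block the log2 fold change was -1.97 for CRYAB, -1.09 for HSPB1 and 1.10 for DNAJB9, and 459 genes passed. The sign-flip test over same-numbered libraries left the ratio differences at -0.88, 2.19 and 3.08, each with an exact p = 0.25, the smallest that 3 pairs can give. CRYAB, with no more than 86 counts in an FA library, is the member most limited by depth.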
